A study of Caenorhabditis elegans with 71 samples.

Results

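Larvae of Caenorhabditis elegans that carry the lin-4(e912) mutation were compared with wild-type N2 larvae in the second larval cycle, the period around the second larval stage. The 5 mutant libraries were those of 20, 22, 24, 26 and 28 h of feeding, and each was paired with the wild-type library taken 4 h earlier, at 16, 18, 20, 22 and 24 h. These are 10 of the 71 libraries of the series, and the pairs were set by labelled time with no use of expression values. Both groups were raised at 20C, as embryos released by bleach, hatched into starvation so that they arrested in the first stage, and then moved to plates with bacteria. Poly(A) RNA of whole larvae was sequenced. The mutant is described in the labels as a knockout of lin-4, and its larvae came from 1 population sampled over time, as did the wild type. Each time point is therefore 1 library, genotype and population cannot be told apart, and the p-values measure the spread between time points.

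The gene lin-4 encodes a microRNA that accumulates late in the first stage and represses lin-14 and lin-28 through their 3′ untranslated regions. The first of these, lin-14, encodes a nuclear factor that specifies first-stage cell fates, and the other, lin-28, encodes an RNA-binding protein that holds back later fates. Without lin-4 both stay active and larvae repeat fates of the first stage at later molts, so the second stage is the first in which a repeated programme can be seen. In RNA from whole animals, fewer cells of a type and less RNA per cell cannot be told apart. Since lin-4 itself is not analysed here, the genotype label was checked on its targets.

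The values are RPKM as deposited, a read count divided by gene length and by the library's total. Estimated depth was 17 to 32.8 M reads for the mutant libraries and 12.3 to 16.4 M for the wild-type libraries. Differences are given as mutant minus wild type on the log2(RPKM + 1) scale with their standard error over the 5 pairs, a scale that understates changes of low genes. Across 12629 genes the paired libraries correlated with r = 0.940, 0.938, 0.965, 0.977 and 0.977, from the earliest pair to the latest. Genes are not independent replicates, so these values only describe how alike the profiles were. The mean r was 0.950 at a delay of 0 h, 0.975 at 2 h, 0.959 at 4 h, 0.909 at 6 h and 0.873 at 8 h, so the profiles were most alike at 2 h. One cycle earlier the highest mean r, 0.978, fell at a delay of 4 h, and one cycle later the highest, 0.980, fell at 6 h. Calls at 4 h are therefore given with those at delays of 2 and 6 h.

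**Figure D1:**
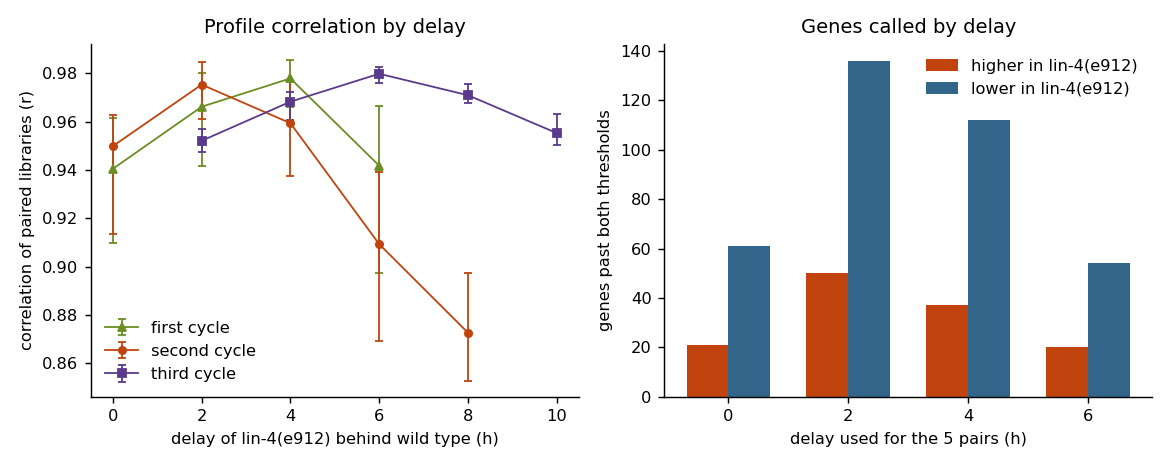
Left, correlation (r, mean with lowest and highest) of paired lin-4(e912) and wild-type libraries against the delay in hours, for the first, the second and the third cycle. Right, number of genes past both thresholds in the second cycle at each delay. The second-cycle correlation was highest at 2 h (0.975), and 136 genes were lower there, against 112 at 4 h and 54 at 6 h.

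In the second cycle 37 genes were higher in the mutant and 112 were lower. A gene was called at an adjusted p under 0.05 (limma, Benjamini-Hochberg adjustment over all genes tested) with a difference of at least 1 log2 unit. Genes called higher were 0.293% of the 12629 tested, genes called lower 0.887%, and both together 1.18%. With the size threshold left out, 390 genes (3.09%) were higher and 643 (5.09%) lower. The median difference over all genes was -0.01. Every called gene differed in the called direction in 5 of 5 pairs. The 5 mutant values did not overlap the 5 wild-type values for 23 of the 37 genes called higher and 78 of the 112 called lower, while over all tested genes 575 (4.55%) did not overlap with the mutant higher and 341 (2.70%) with it lower.

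The delay decided part of these calls. At 0 h 21 genes were higher and 61 lower, at 2 h 50 and 136, and at 6 h 20 and 54. Of the 37 genes called higher, 34 were also called at 2 h and 15 at 6 h. Of the 112 called lower, 79 were also called at 2 h and 47 at 6 h. At 2, 4 and 6 h together, 14 genes were called higher and 38 lower, and of these 13 and 37 had groups that did not overlap. Just inside the size threshold lay F17C11.4, F10G2.1 and C08E3.13 at -1.0 each, and just outside it lay F56A4.10 at 0.999, C27A7.8 at -0.99 and C31H2.3 at -0.98. Single pairs weighed on the counts too: 16 genes were called higher without the pair of mutant 26 h, 17 without that of 24 h and 24 without that of 22 h. Without the pairs of 26 and 24 h, 47 and 51 genes were called lower.

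**Figure D2:**
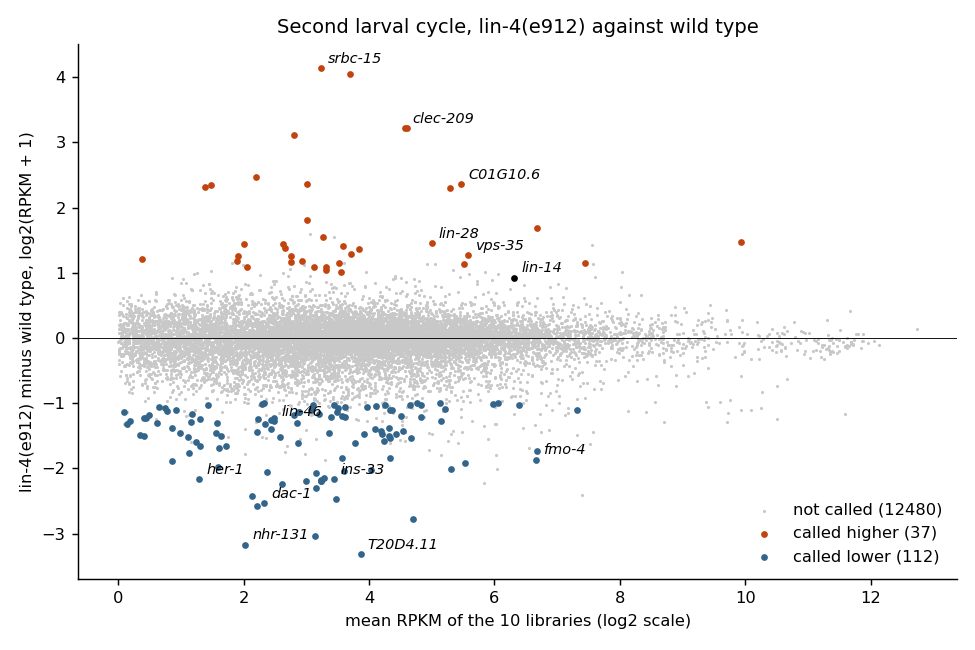
Difference between lin-4(e912) and wild type on the log2(RPKM + 1) scale against the mean RPKM of the 10 libraries (log2 scale), 1 point per gene. The 37 genes called higher and 112 called lower are coloured. The target lin-28 lies among those called higher, and lin-14 (black), at 0.93, just under the size threshold. The gene nhr-131 is plotted at its value on this scale although it is listed at 0 in the mutant.

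Both known targets of lin-4 were higher in the mutant. For lin-28 (F02E9.2) the mutant libraries of 20 to 28 h held 47.6, 49.1, 47.9, 48.6 and 42.5 RPKM, and the wild-type libraries of 16 to 24 h held 20.2, 15.6, 18.1, 15.9 and 13.6 RPKM. The mutant level was nearly flat, and its lowest library stood above the highest wild-type library. The difference was 1.46 ± 0.09 (SE, 5 pairs, adjusted p = 0.0015), and lin-28 was called under each of 16 alternative settings, with differences of 1.27 to 1.80.

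For lin-14 (T25C12.1) the mutant held 163, 113, 102, 79.2 and 66.7 RPKM and the wild type 54.4, 72.9, 69.8, 44.4 and 31 RPKM. Both series fell towards the end of the cycle, the mutant library of 20 h was the highest, and that of 28 h lay within the wild-type range. The difference of 0.93 ± 0.16 passed the test (adjusted p = 0.027) and stayed below 1 log2 unit, so lin-14 was not called. It was past both thresholds at delays of 2 h (1.02, adjusted p = 0.0038) and 0 h (1.15, adjusted p = 0.043). It passed the test under 9 of 16 alternatives and missed at a delay of 6 h (0.82, adjusted p = 0.18), against all wild-type libraries of 14 to 26 h (1.01, adjusted p = 0.054), with no block for pairs (0.93, adjusted p = 0.12) and without the pairs of 22, 24, 26 or 28 h (adjusted p of 0.063, 0.075, 0.092 and 0.088).

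The gene lin-46 (R186.4) encodes a scaffold protein related to gephyrin that acts downstream of lin-28. The mutant held 3.41, 2.79, 3.10, 2.33 and 2.07 RPKM, while the wild type held 10.9, 7.32, 7.51, 4.20 and 12.3 RPKM. All mutant libraries lay below all wild-type libraries, and the difference was -1.27 ± 0.20 (adjusted p = 0.022, past the test under 12 of 16 alternatives). The nuclear receptor gene daf-12 (F11A1.3), which links hormone signals to stage transitions, held 32.8, 36.3, 36.7, 41 and 39.6 RPKM in the mutant against 47.7, 57.5, 72.1, 73.2 and 53.1 RPKM. It passed the test without reaching the size threshold, at -0.67 ± 0.10 (adjusted p = 0.018), again with no overlap. The wild type rose to a peak at 20 and 22 h, and the mutant stayed close to its level of the first cycle.

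Of 17 heterochronic regulators tested, lin-14 and lin-28 passed upward, and lin-46, daf-12 and lin-29 downward, beside 3.09% and 5.09% of all genes. The downward count was 4, 1 and 0 at delays of 2, 6 and 0 h. It was 3, 0, 0, 0 and 2 without the pair of mutant 20, 22, 24, 26 or 28 h. The list's median difference was 0.03. The gene lin-29 (W03C9.4), a zinc-finger factor of the switch from larva to adult, was at -0.50 ± 0.11 (adjusted p = 0.048) and passed under 4 of 16 alternatives. The factors hbl-1 (0.22), lin-41 (0.04), lin-42 (-0.15), nhr-23 (-0.07), nhr-25 (0.03) and mab-10 (0.12) did not pass. Neither did lin-66 (0.24), puf-9 (0.29), kin-20 (-0.49), dre-1 (-0.19), sea-2 (-0.01) and nhl-2 (0.06).

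**Figure D3:**
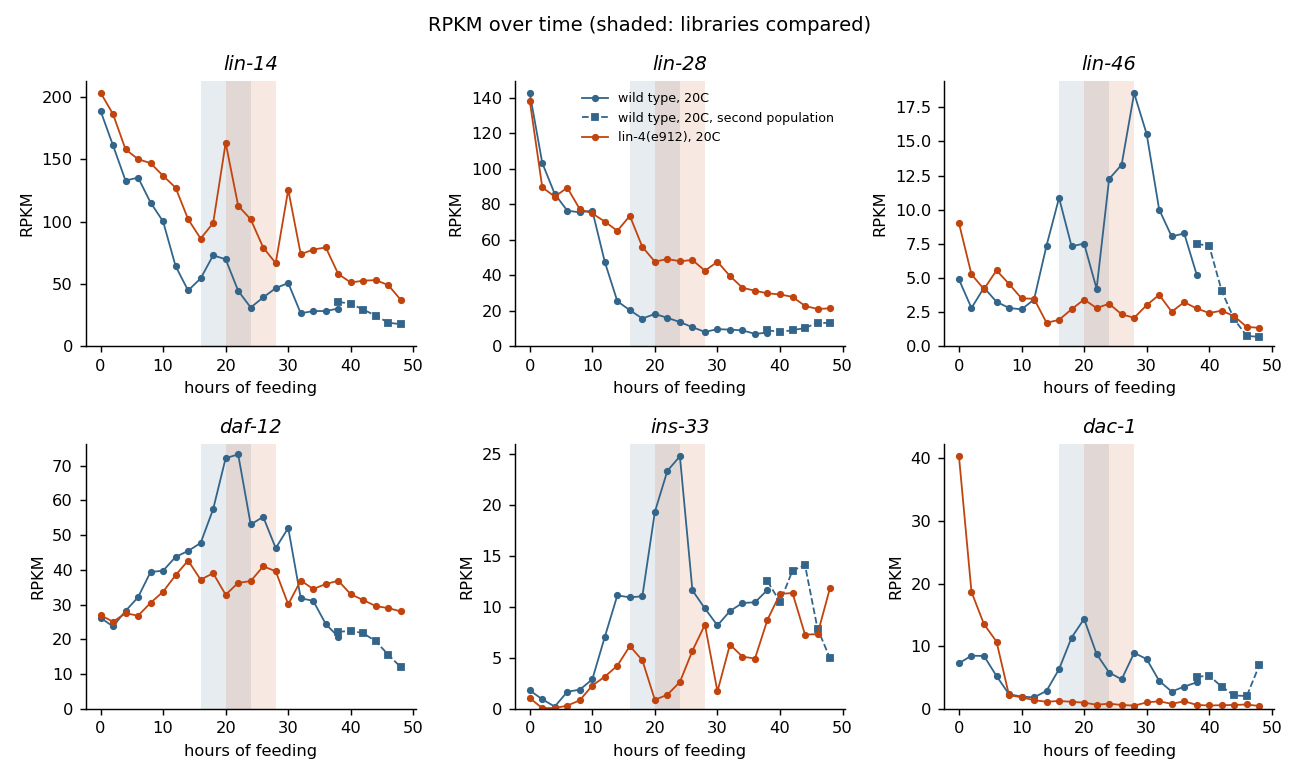
RPKM against hours of feeding for lin-14, lin-28, lin-46, daf-12, ins-33 and dac-1, with 1 point per library. Blue is wild type at 20C (squares: the later population), red is lin-4(e912), and shading marks the libraries compared. In the shaded windows lin-28 ran from 42.5 to 49.1 RPKM in the mutant and from 13.6 to 20.2 RPKM in wild type, and ins-33 rose to 24.8 RPKM in wild type and to 8.25 RPKM in the mutant.

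The second cycle was set against the first by pairing mutant libraries of 10 to 18 h with wild-type libraries of 6 to 14 h. In the first cycle 55 genes (0.427%) were higher and 68 (0.528%) lower. Of the genes called in the second cycle, 17 of 37 higher and 27 of 112 lower were already called the same way in the first, where 36 and 94 of them were tested and none was called the other way. A test of the change itself, the second-cycle difference minus the first-cycle difference, called 12 genes upward (0.0935%) and 41 downward (0.319%). This change contains the second-cycle libraries, so its calls among the 149 genes only sort them. On that basis 5 genes called higher and 27 called lower had a called change and no call in the first cycle, and 15 and 58 fell in neither group. With the pair of 22, 24 or 26 h left out, no upward change and at most 1 downward change was called. Without the pair of 20 h 8 upward and 92 downward changes were called, and without that of 28 h 8 and 22. The membership of this group therefore depends on single pairs, most on those of 22, 24 and 26 h.

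The lower genes with a called change had median differences of -0.06 in the first cycle, -1.76 in the second and -0.85 in the third. The first-cycle and second-cycle medians follow from how the group was sorted. The third-cycle libraries had no part in the sorting, but genes picked for a large second-cycle difference tend to show a smaller one elsewhere. The largest second-cycle difference in the group was that of T20D4.11, with 4.18, 0.627, 0.912, 1.18 and 3.72 RPKM in the mutant and 20.8, 28.8, 32.2, 25.6 and 27.6 RPKM in wild type. Wild type had gone from a mean of 3.04 RPKM in the first cycle to 27.0 RPKM, and the mutant from 1.45 to 2.12 RPKM. The groups did not overlap, the difference was -3.32 ± 0.34 (adjusted p = 0.0076), and the mutant reached 21.6 RPKM at 42 h.

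The insulin-like peptide gene ins-33 (W09C5.4) held 0.879, 1.38, 2.63, 5.69 and 8.25 RPKM in the mutant and 10.9, 11, 19.3, 23.3 and 24.8 RPKM in wild type. Both rose through the window, and the highest mutant library stayed below the lowest wild-type library. The difference was -2.17 ± 0.18 (adjusted p = 0.0050), against 0.00 in the first cycle and -0.27 in the third. A list of genes reported to be regulated by LIN-14 had 2 members tested, of which ins-33 was lower and oig-1 did not pass (-0.25).

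The gene dac-1 (B0412.1), a homologue of the Dachshund family of transcriptional regulators, followed another course. The mutant held 0.978, 0.651, 0.812, 0.612 and 0.509 RPKM and the wild type 6.34, 11.4, 14.4, 8.75 and 5.79 RPKM, a difference of -2.53 ± 0.19 (adjusted p = 0.0033). In arrested larvae at 0 h the order was the reverse, with 40.4 RPKM in the mutant, 7.28 RPKM in wild type at 20C and 9.51 RPKM in wild type at 25C, each 1 library. From 20 h on the mutant did not exceed 1.21 RPKM, so that no second-cycle rise was seen in it.

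Other genes of this group had similar sizes. C33D9.3 held 5.42, 7.36, 9.21, 10.0 and 8.04 RPKM in the mutant and 16.4, 29.5, 40.4, 42.3 and 32.9 RPKM in wild type, with no overlap (-1.84 ± 0.10, adjusted p = 0.0010). The flavin monooxygenase gene fmo-4 (F53F4.5) rose late in the window in both, from 16.0 to 83.8 RPKM in the mutant and from 36.3 to 386 RPKM in wild type, and the ranges overlapped (-1.87 ± 0.17, adjusted p = 0.0058). Further members were hsp-12.1, a small heat shock protein gene (-1.48 ± 0.19), zig-3, a secreted immunoglobulin-domain protein gene (-1.51 ± 0.20), and mig-17, a secreted metalloprotease that guides gonad cell migration (-1.23 ± 0.20). With a second-cycle delay of 2 h the changes of hsp-12.1, zig-3 and fmo-4 missed limma's test (adjusted p = 0.052, 0.063 and 0.059). Those of C33D9.3 and mig-17 were still called. C33D9.3, fmo-4, zig-3 and mig-17 were chosen for mention after their values were seen.

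The 5 higher genes with a called change were lin-28, C01G10.6, W01A11.7, F59D6.1 and R05A10.1. C01G10.6 held 32.8, 117, 117, 80.1 and 27.5 RPKM in the mutant and 4.15, 12.5, 25.7, 21.8 and 6.23 RPKM in wild type. Both groups peaked in the middle of the window, and the lowest mutant library stood above the highest wild-type library. The difference was 2.36 ± 0.20 (adjusted p = 0.0050). The mutant mean of 74.8 RPKM was close to its first-cycle mean of 75.0 RPKM, while wild type had gone from 64.2 to 14.1 RPKM. W01A11.7 (1.28 ± 0.11), F59D6.1 (1.27 ± 0.27) and R05A10.1 (1.19 ± 0.18) were smaller. C35E7.4 held 20.7, 12.9, 13.8, 12.7 and 13.5 RPKM against 6.51, 5.75, 4.06, 3.48 and 2.58 RPKM in wild type (1.55 ± 0.14, adjusted p = 0.0051), and its change of 1.24 missed the test (adjusted p = 0.064).

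An independent wild-type course at 25C showed how these genes move between the same cycles in normal development. There, 5 libraries of 12 to 18 h were set against 5 of 4.5 to 10.5 h, and 91 genes (0.700%) were higher in the second cycle and 53 (0.407%) lower. Of the 112 genes lower in the mutant, 110 were tested at 25C, 22 of them rose and none fell. That is 20.0% of those tested and 24.2% of the genes that rose, and their median stage difference was 0.61 against -0.12 for all genes. Of the 37 genes higher in the mutant, 33 were tested, none rose, and lin-28, C35E7.4 and F20C5.6 fell, the last named after its value was seen. These are 9.09% of those tested and 6.25% of the 48 genes that fell and were tested in both comparisons, and the median was -0.36.

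The stage differences were largest in the group with a called change. Of its 27 lower genes 26 were tested at 25C, 24 had a positive stage difference, 11 were called, and the median was 1.54. T20D4.11 went from a mean of 1.03 RPKM to 24.4 RPKM (3.82), ins-33 from 8.39 to 63.3 RPKM (2.71) and dac-1 from 2.42 to 12.1 RPKM (1.93). All 5 higher genes had a negative stage difference and 1, lin-28, was called (59.5 to 19 RPKM, -1.54). Of the heterochronic regulators lower in the mutant, lin-46 went from 3.25 to 7.28 RPKM (0.99, adjusted p = 0.036) and daf-12 from 25.9 to 63.1 RPKM (1.21, adjusted p = 0.039). The 27 lower genes that were already called in the first cycle had a median of -0.11, and 4 of them rose. The 25C calls numbered 0 in either direction without the 2 libraries of replicate 2, 3 or 4, and 22 higher and 12 lower without those of replicate 5, so the signs and sizes carry this description more than the calls.

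**Figure D4:**
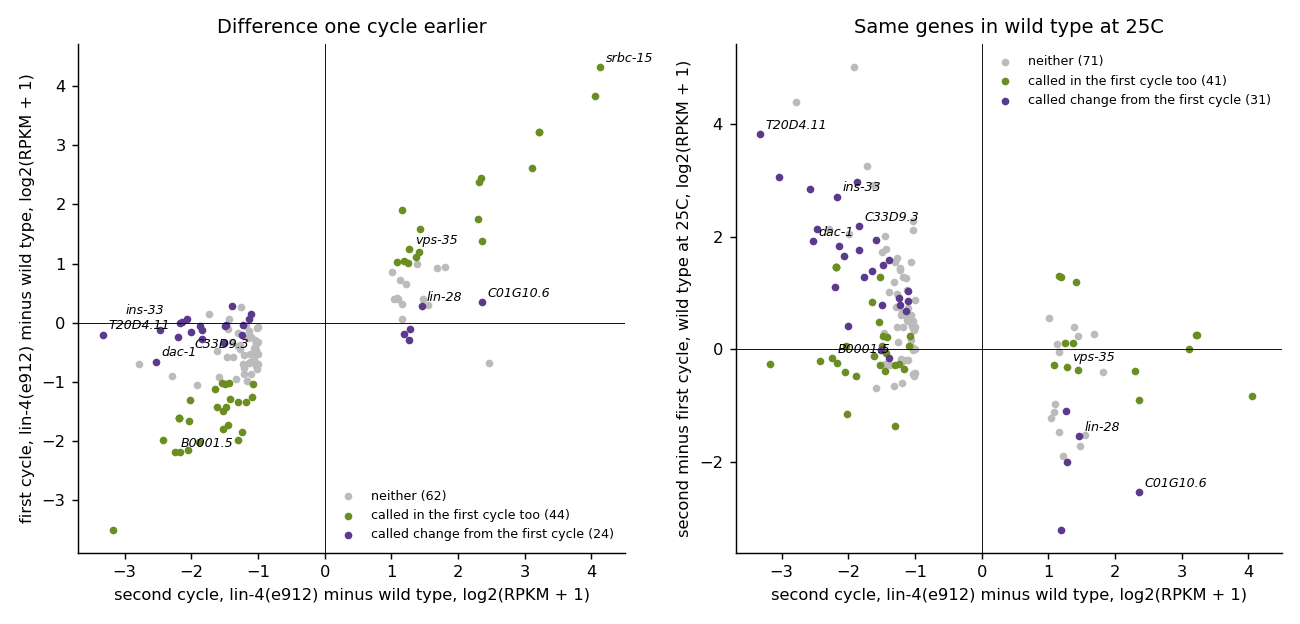
For the called genes, the second-cycle difference (lin-4(e912) minus wild type, log2(RPKM + 1)) against the first-cycle difference (left) and against the change from the first to the second cycle in wild type at 25C (right). Genes already called in the first cycle are green, genes with a called change are purple, others grey; genes below the filter in the second measure are left out, so that 130 and 143 are shown. Genes such as T20D4.11 and ins-33 lie near 0 on the left and high on the right, while srbc-15 and B0001.5 are as far from 0 in the first cycle as in the second.

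The other large group differed from wild type before the second cycle. Its 17 higher genes had a median difference of 1.75 in the first cycle and 2.30 in the second, and its 27 lower genes of -1.60 and -1.54. Calls in both cycles formed this group, so large medians in both follow from the sorting. The chemoreceptor-family gene srbc-15 (F15E11.10) held 9.88, 15.6, 15.0, 24.0 and 29.3 RPKM in the mutant and at most 0.117 RPKM in wild type, where the libraries of 16 and 18 h are listed at 0 (4.14 ± 0.20, adjusted p = 8.6e-04). The vacuolar sorting gene vps-35 (F59G1.3), a subunit of the retromer, held 68.6, 64.8, 66.2, 70.9 and 70.7 RPKM against 26.9, 23.8, 28.8, 30.6 and 28.5 RPKM. Its difference of 1.27 ± 0.07 was 1.24 in both other cycles, and all 25 mutant libraries (60.1 to 80.8 RPKM) lay above all 46 wild-type libraries (23.6 to 34.9 RPKM).

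A pair of lower genes was as clear-cut. The nuclear hormone receptor gene nhr-131 (T01G6.2) is listed at 0 in all 25 mutant libraries and held 6.07, 7.74, 9.79, 9.83 and 7.24 RPKM in the compared wild-type libraries, so no fold is given. B0001.5 held 1.60, 1.80, 1.67, 1.22 and 1.10 RPKM in the mutant against 10.8, 11.1, 11.8, 9.99 and 9.87 RPKM (-2.24 ± 0.07, adjusted p = 1.1e-04), and its 25 mutant libraries (0.914 to 2.69 RPKM) lay below all wild-type libraries (9.29 to 18.5 RPKM). Every mutant library stood beyond every wild-type library, at both temperatures, for 6 of the 149 called genes. These were srbc-15, vps-35, F56A4.9 and Y19D10A.7 above, and nhr-131 and B0001.5 below. The values of F56A4.9 and Y19D10A.7 nearly equal each other and may come from shared reads, so these genes are not separate observations. Over all 12629 genes tested, 5 (0.0396%) were so placed above and 2 (0.0158%) below.

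For several genes of this group the 20C wild-type course itself stood apart from the other wild-type populations. The chemoreceptor-family gene srw-85 (C25F9.1) held 27.0, 29.6, 30.2, 21.9 and 17.6 RPKM in the mutant and 1.02, 0.669, 0.683, 0.169 and 0.356 RPKM in wild type (4.05 ± 0.11, adjusted p = 5.8e-05). Yet at 0 h it was at 61.0 RPKM in the mutant, 1.46 RPKM in 20C wild type and 38.2 RPKM in 25C wild type, and the second cycle at 25C had a mean of 15.3 RPKM. The glucuronosyltransferase gene ugt-13 (H23N18.1) was 3.11 ± 0.33 higher than in 20C wild type and 0.34 higher than in the second cycle at 25C. The F-box gene fbxa-156 was 1.44 ± 0.10 higher and 0.42 lower, respectively.

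Among lower genes, her-1 (ZK287.8), which encodes a secreted signal of male development, held 0.275, 0.194, 0.210, 0.323 and 0.193 RPKM in the mutant and 4.99, 5.52, 5.69, 3.04 and 3.99 RPKM in wild type (-2.16 ± 0.14, adjusted p = 0.0019). The second cycle at 25C had a mean of 1.56 RPKM, between the groups. C14A11.5 was at -2.43 ± 0.07 against 20C wild type and at -0.20 against the second cycle at 25C, where wild type had a mean of 0.943 RPKM. F45D11.14, F45D11.15 and F45D11.16, whose near-equal values may come from shared reads, were at -2.19 ± 0.12 each, and here the 25C course lay on the other side. F45D11.16 had a second-cycle mean of 2.67 RPKM in the mutant, 16.2 RPKM in 20C wild type and 809 RPKM in 25C wild type, so the mutant was below both, by more against 25C (-7.81). At 0 h it held 280 RPKM in 20C wild type, 12.8 RPKM in 25C wild type and 128 RPKM in the mutant.

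Counted over the groups, 11 of the 17 higher genes and 15 of the 27 lower genes of this kind kept a difference of at least 1 log2 unit against the second cycle at 25C. For the genes with a called change these counts were 4 of 5 higher and 21 of 27 lower, with medians of 1.28 and -1.78. Over all tested genes 1.49% were that much higher and 2.57% that much lower, with a median of -0.07. This comparison with 25C was added after the data were seen, carries no test, and differs in temperature as well as genotype. Against the later 20C wild-type population, at 38 to 48 h, 11 of 17 higher and 2 of 27 lower genes kept such a difference. Of the genes with a called change, 4 of 5 higher and 5 of 27 lower did, with medians of 2.1 and -0.19. Over all tested genes 2.54% were that much higher there and 0.831% that much lower, with a median of 0.14. No delay was matched there.

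**Figure D5:**
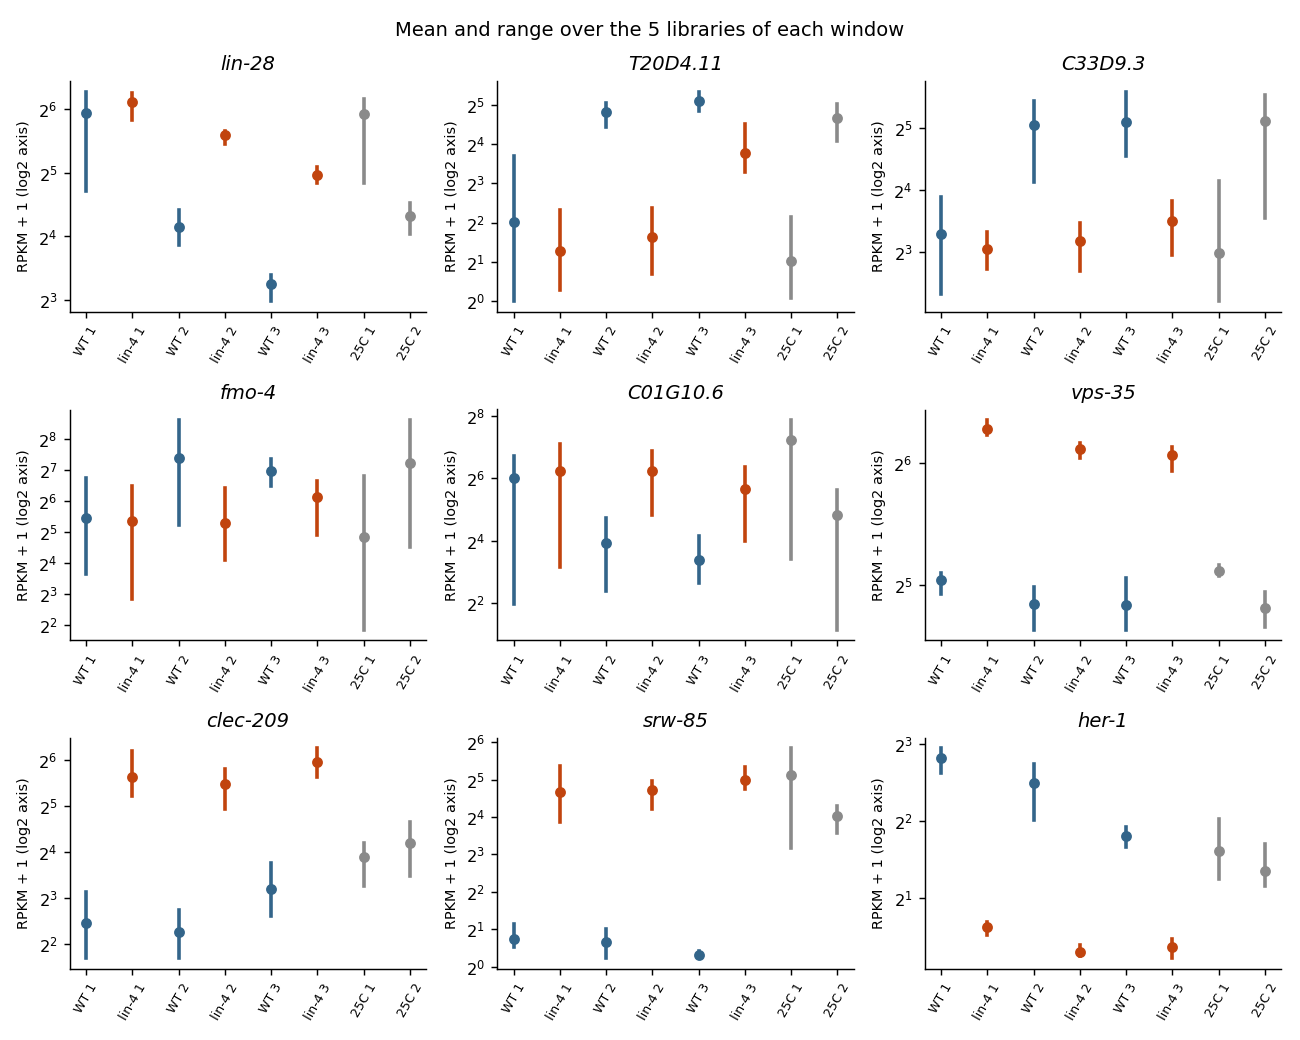
Mean (point) and lowest to highest value (line) of the 5 libraries in each window, as RPKM + 1 on a log2 axis, for wild type (blue) and lin-4(e912) (red) at 20C in cycles 1, 2 and 3 and for wild type at 25C (grey) in cycles 1 and 2. For lin-28 and C01G10.6 the mutant window of cycle 2 lies near its cycle 1, T20D4.11 and C33D9.3 stay low in the mutant, vps-35 is apart in each cycle, and srw-85 in 25C wild type (mean 15.3 in cycle 2) lies far above the 20C wild type.

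Some called genes lay near others called the same way on the chromosomes. By gene order in RefSeq's WBcel235 annotation, 29 of the 110 placed genes called lower (26.4%) had another gene called lower among the 5 neighbours on either side, whereas 4.42% of the 12429 placed genes did. For genes called higher the count was 9 of 37 (24.3%), against 1.45%. The longest run, on chromosome V, held 7 of the 8 genes tested in a span of 10: T20D4.6, T20D4.9, T20D4.10, T20D4.11, T20D4.12, T20D4.15 and T20D4.17. Next to T20D4.11, T20D4.10 held 1.25, 0.253, 0.708, 0.827 and 2.45 RPKM in the mutant and 7.58, 11.8, 19.9, 18.4 and 24.7 RPKM in wild type (-3.04 ± 0.25, adjusted p = 0.0049). T20D4.12 was at -2.58 ± 0.33. All but T20D4.9, whose change was not tested, had a called change.

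Other runs on chromosome V were 4 genes of C17B7, among them C17B7.2 (-2.2 ± 0.18) and C17B7.12 (-2.47 ± 0.31), and 4 genes that begin with T28A11.2 (-2.0 ± 0.17) and include F35F10.5 (-2.14 ± 0.27) and F35F10.6 (-2.07 ± 0.20). The first-cycle differences of these 5 genes ran from -0.23 to 0.06. Among higher genes, srbc-15, Y19D10A.7, clec-209 and Y19D10A.12 formed a run of 4, and F56A4.9, F56A4.2 and C01B4.9 a run of 3. The C-type lectin gene clec-209 held 29.6, 44.8, 42.5, 46.7 and 55.1 RPKM against 2.24, 3.35, 4.03, 3.91 and 5.70 RPKM (3.22 ± 0.08, adjusted p = 4.9e-05). Its values nearly equal those of F56A4.2 in the other run, as those of F56A4.9 and Y19D10A.7 nearly equal each other. Reads may be shared between such genes, so these pairs are not separate observations. The same holds for F45D11.14, F45D11.15 and F45D11.16, a run among the lower genes that is part of the count above.

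Germline genes were modestly higher as a group. Of 27 tested, 20 passed the test upward and none downward, with a median of 0.48 and none called, beside 3.09% of all genes passing upward. The P granule gene pgl-1 held 24.7, 22.9, 29.3, 29.7 and 34.8 RPKM in the mutant and 11.6, 15.0, 13.2, 14.0 and 18.9 RPKM in wild type (0.92 ± 0.10, adjusted p = 0.0081), with no overlap. The meiotic cohesin gene rec-8 was at 0.71 ± 0.07, the translational repressor gld-1 at 0.86 ± 0.11, and glp-1, the receptor that keeps germ cells mitotic, at 0.43 ± 0.08. At delays of 2, 6 and 0 h 17, 10 and 0 passed. Without the pair of mutant 22, 24, 26 or 28 h the number was 10, 0, 1 and 8. Outside the list, the Piwi gene prg-2, named after its value was seen, was called at 1.01 ± 0.09.

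Histone genes were lower, with 33 of 72 passing downward and none upward, and a median of -0.66, beside 5.09% of all genes passing downward. Their copies are nearly identical and their messages mostly lack poly(A) tails, so the members are not separate and are poorly caught by the assay. The called member his-32 held 6.68, 4.53, 4.04, 4.44 and 4.28 RPKM in the mutant and 11.6, 9.75, 11.8, 18.2 and 27.3 RPKM in wild type (-1.45 ± 0.25, adjusted p = 0.027). The count was 27 at a delay of 2 h, 2 at 6 h and 0 at 0 h. It was 2, 1, 0 and 7 without the pair of 22, 24, 26 or 28 h. Of 33 genes of DNA replication and the cell cycle, the CDK inhibitor gene cki-1 alone passed (-0.56 ± 0.09).

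Peptide signal genes passed mainly downward. Of 26 insulin-like genes 7 were lower, beside 5.09% of all genes, with a median of -0.28, and ins-33 and ins-39 were called. The count was 10, 2 and 2 at delays of 2, 6 and 0 h, and 4, 7, 2, 2 and 4 without the pair of mutant 20, 22, 24, 26 or 28 h. The gene ins-39 held at most 0.269 RPKM in the mutant and 2.50 to 4.50 RPKM in wild type (-1.88 ± 0.10, adjusted p = 9.1e-04), and it differed by -2.02 already in the first cycle. The members ins-11 (-0.93 ± 0.11) and ins-18 (-0.79 ± 0.10) passed without reaching the size threshold. Of 31 neuropeptide genes 10 were lower, with a median of -0.23 and none called, among them flp-21 (-0.71 ± 0.09) and flp-16 (-0.52 ± 0.08), which encode FMRFamide-like peptides. At a delay of 2 h 4 neuropeptide genes passed, and at 6 h and at 0 h none did. Without the pair of 20, 22, 24, 26 or 28 h the number was 7, 1, 0, 0 and 1. Of 30 other neuronal genes 4 were lower, including the dopamine synthesis gene cat-2 (-0.52 ± 0.08), and at most 1 was with any 1 pair left out.

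Among 193 nuclear hormone receptors 7 passed upward and 12 downward, with a median of -0.01, beside 3.09% and 5.09% of all genes. At delays of 2, 6 and 0 h 16, 1 and 1 passed upward and 15, 5 and 1 downward. With 1 pair left out 0 to 2 passed upward and 3 to 13 downward. The 4 called members, all lower, were nhr-131, nhr-6 (-1.30 ± 0.08), nhr-43 (-1.11 ± 0.11) and nhr-158 (-1.0 ± 0.08). Of 146 detoxification enzymes 10 passed upward, beside 3.09% of all genes, and 1 downward. At delays of 2, 6 and 0 h 25, 1 and 3 passed upward, and without the pair of 20, 22, 24, 26 or 28 h 8, 2, 3, 0 and 5 did. The members ugt-13, ugt-29 (1.41 ± 0.30) and the cytochrome P450 gene cyp-35C1 (1.13 ± 0.24) were called, and the last 2 passed the test under 4 of 16 alternatives each.

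Of 18 starvation and stress genes 3 passed downward and 1 upward, beside 5.09% and 3.09% of all genes. Of the lower ones dod-3 (-2.02 ± 0.32) and R11G11.14 (-1.11 ± 0.19) were called, and ZK6.7 was at -0.89 ± 0.17. The higher one was W05G11.6 (0.83 ± 0.16, adjusted p = 0.034), whose change from the first cycle, 1.14, was called upward. No lower member passed without the pair of 22, 24, 26 or 28 h. R11G11.14 passed under 6 of 15 alternatives and dod-3 under 9 of 16. Of 16 seam and epidermal fate factors ceh-16, the engrailed homologue of the seam, was called lower (-1.18 ± 0.21), and the values of the 2 groups overlapped, at 2.26 to 4.89 RPKM in the mutant and 3.65 to 15.5 RPKM in wild type. The Runx-family gene rnt-1, which promotes seam cell divisions, passed upward (0.52 ± 0.10, adjusted p = 0.033). Thus 1 of these 16 factors passed in each direction, beside the same shares of all genes.

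Genes of the molting cycle mostly did not pass at this delay. Of 112 cuticle collagens 5 were lower, beside 5.09% of all genes, and col-77 (-1.91 ± 0.36) and col-68 (-1.30 ± 0.25) were called. The list's median of -0.55 went with large swings in both groups: col-77 ran from 3.96 to 52 RPKM in the mutant and from 10.5 to 124 RPKM in wild type. At a delay of 2 h 17 collagens passed downward and at 0 and 6 h none did. Without the pair of 20 h 11 passed, without that of 22 h 1, and without that of 24, 26 or 28 h none. No member passed among 38 hedgehog-related genes, 35 cuticlin and apical matrix genes, 24 astacin proteases and 32 epidermal antimicrobial peptide genes, whose medians were -0.33, -0.06, -0.15 and 0.05. Of 30 molting factors nekl-2 passed (-0.44 ± 0.10).

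Few markers of other tissues passed. The counts that follow stand beside 3.09% of all genes passing upward and 5.09% downward. Of 20 body wall muscle genes deb-1 passed (0.40 ± 0.09), of 22 intestinal genes cpr-5 (0.51 ± 0.12), and of 15 pharyngeal muscle and gland genes none. Of 66 pharyngeal cuticle genes 3 passed upward and 2 downward, and pqn-60 (R11G11.7), a gene of the glutamine-rich and asparagine-rich family, was called at 2.30 ± 0.20. None of 77 ribosomal protein genes, 21 vulval genes and 8 reference genes passed. Of 9 microRNA machinery genes cgh-1 passed upward (0.38 ± 0.08). Patched-related genes (27) and Hox and Wnt genes (18) had 1 member passing in each direction, 92 C-type lectins 3 in each, and 19 insulin and dauer pathway genes 1 upward and 2 downward. Of 19 heat shock genes hsp-12.1 passed, and of 2 sperm genes msp-33 (-0.36 ± 0.08), both downward. Of 4 genes of male development or its repression her-1 and tra-1 (-0.40 ± 0.09) passed, also downward. The reference genes had a median of 0.09 and the ribosomal protein genes of -0.09. The 6 yolk protein genes were below the filter, with summed levels of 0.612 to 1.65 RPKM in the mutant and 0.588 to 1.68 RPKM in wild type.

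In the third cycle, mutant libraries of 34 to 42 h against wild type of 28 to 36 h, 120 genes (0.960%) were higher and 103 (0.824%) lower. Of the second-cycle genes, 30 of the 37 higher and 32 of the 112 lower were called the same way, and 2 of the lower genes were called the other way. The test of the change from the second to the third cycle called 170 genes upward (1.35%) and 10 downward (0.0793%). Here the third cycle stood at its best-matched delay of 6 h and the second at 4 h. With a second-cycle delay of 2 h, an alternative added after the data were seen, 117 changed upward and 9 downward. With a delay of 4 h in both cycles the counts were 198 and 8. Among the 112 lower genes 48 changed upward, in a contrast that shares the second-cycle libraries with the comparison that chose them. Without the pair of mutant 26 h in the second cycle and its counterpart one cycle later, 90 genes changed upward. The difference of lin-28 was 1.72 in the third cycle and that of lin-46 was -1.75, both called, and lin-14 stood at 0.84. The differences of ceh-16 (-0.05), daf-12 (-0.06) and ins-33 (-0.27) in the third cycle were not called.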

How the data were processed

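The authors deposited 1 table of RPKM values, named so by them, for 71 libraries. The aligner was BWA 0.5.9 per the submitters' processing notes. Not given in the sources used here are the build, the annotation, how reads were counted and whether by strand, so no coordinates are printed, and overlapping or near-identical genes may hold shared reads. Of 21777 entries, 2643 with RIT identifiers and 11 others had no gene name and were left out (1.58 to 3.03% of summed RPKM), which left 19120 genes, 18793 of them with a current symbol. The table holds no 0, and empty cells were taken as 0. Depth (12.3 to 36.6 M reads per library) was read from the spacing of low values, where 64.8% of 2747 low entries were whole multiples of 1 read within 0.001, and 46 genes with 1 annotated transcript shared the most common depth. The depth is an estimate that rests on transcript lengths.

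Genes with a mean of at least 1 RPKM over the 10 libraries were tested on log2(RPKM + 1) with limma 3.58.1 (R 4.3.3) and pair as a block, and p-values were adjusted over all genes tested. Pairs follow from labelled time with the delay; deviations from group means within pairs correlated with r of 0.490, 0.281, 0.693, 0.637 and 0.734, while the highest r of each mutant library with a wild-type library of another pair was 0.850, 0.832, 0.659, 0.729 and 0.536, above its own pair in 3 of 5. The first and the third cycle used the delay with the highest mean correlation. The contrasts between cycles and the 25C contrast were fitted likewise. The scripts were checked on simulated data. Tables and plots used Python 3.11.15, NumPy 2.4.6, pandas 2.3.3 and Matplotlib 3.10.9. Named genes were all heterochronic regulators, the 12 most changed genes per direction that were called without overlap at delays of 2, 4 and 6 h, up to 3 called members of each list (or the 2 with the smallest p), and the 6 largest changes between cycles per direction. Of the genes outside this rule, those at the size threshold, in runs of neighbours and among passing list members (gld-1, glp-1, ins-11, ins-18, nhr-43, tra-1, rnt-1, W05G11.6, ZK6.7) were named after their values were seen, as were those so marked. Alternatives were other delays, pseudocounts, filters, scalings, no block, and leaving out each pair. The comparison, its members and the gene lists were chosen with earlier results of these data known.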

Additional observations from a re-analysis of the deposited data

Results flagged for a closer look

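Within the 5 pairs, 1 pair stood far from the other 4 for 6 of the named genes, a pattern that chance gives in about 1 of 20 groups of this size. Every named gene was screened in this way, and 6 is about as many as that rate gives. For lin-66 the pair of mutant 28 h was at 0.53 and the others at 0.095 to 0.21. For mab-10 the pair of 20 h was at -1.19 against 0.21 to 0.77. For drsh-1 that of 22 h was at 0.19 against 0.29 to 0.31. For ida-1 that of 28 h was at -0.20 against -0.44 to -0.41, and for msp-33 that of 26 h was at -0.57 against -0.34 to -0.27. T20D4.12 is the only one of the 6 that was called, and its pair of 20 h was at -1.0 while the others ran from -3.26 to -2.63.

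The difference between mutant and wild type changed from the first to the second cycle for 17 named genes, by limma's test of the change itself. Downward changes were -3.12 for T20D4.11, -2.78 for T20D4.10, -2.33 for T20D4.12, -2.35 for C17B7.12, -1.96 for C17B7.2, -2.18 for T28A11.6 and -2.17 for T28A11.19. The insulin-like gene ins-33 changed by -2.17, dac-1 by -1.87 and hsp-12.1 by -1.45. Upward changes were 2.01 for C01G10.6, 1.56 for F59D6.1, 1.39 for W01A11.7, 1.37 for R05A10.1 and 1.18 for lin-28. F40E3.5 (1.26) and R02C2.7 (1.19) changed too, although neither passed in the second cycle itself.

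From the second to the third cycle 20 named genes changed, a count that is again largely set by the naming rule. Over all 12611 genes tested, 170 (1.35%) changed upward and 10 (0.0793%) downward. The largest upward changes were 2.91 for phat-5, a pharyngeal gland gene that did not pass in the second cycle, 2.80 for F15E6.3, 2.62 for dod-3, and 2.76 each for F45D11.14, F45D11.15 and F45D11.16, which share near-equal values. T20D4.11 changed by 1.95, ins-33 by 1.89, nhr-6 by 1.68, nhr-158 by 1.49, C17B7.2 by 1.34, hsp-12.1 by 1.17, ins-39 by 1.16 and ceh-16 by 1.13, all of them genes called lower in the second cycle. Downward changes were -1.64 for C11H1.5, -1.26 for Y41C4A.11, -1.25 for C40H1.7, -1.23 for T28D6.3, -1.22 for the fatty acid desaturase gene fat-7 and -1.11 for Y48G10A.6, none of which was called in the second cycle.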

How the results depend on the processing

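Counts of called genes depended on the settings, while the direction of named genes that passed did not, apart from ida-1, which went from -0.38 to 0.027 at a delay of 0 h. Genes called higher numbered 21 at a delay of 0 h, 20 at 6 h, 56 with a pseudocount of 0.1, 17 with 5, and 16 to 27 with 1 pair left out. Genes called lower numbered 61, 54, 178, 41 and 47 to 118 under the same settings, 72 with a mean RPKM of at least 5 and 68 against all wild-type libraries of 14 to 26 h. Without the block for pairs (no replicate block) 19 genes were higher and 72 lower, lin-14 was at 0.93 (adjusted p = 0.12), and at 25C 185 genes rose and 115 fell; fewer list members passed as well (germline 10, histones 7, neuropeptides 0, insulin-like 5). The lin-14 difference was 0.82 at a delay of 6 h, 1.01 against all wild-type libraries of 14 to 26 h and 0.77 to 1.02 with 1 pair left out. That of lin-28 was 1.42 to 1.52 with 1 pair left out.

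Upward changes from the first to the second cycle numbered 6 with a pseudocount of 5, 25 with a second-cycle delay of 2 h (an alternative added after the data were seen) and 0 to 8 with 1 pair left out. Downward ones numbered 17 and 65 there, 27 with a mean RPKM of at least 5, 23 after rescaling by medians of ratios and 0 to 92 with 1 pair left out. From the second to the third cycle 269 rose with a pseudocount of 0.1, 69 with 5 and 90 to 212 with 1 pair left out; 1 fell with a pseudocount of 5, 5 with a mean RPKM of at least 5 and 2 to 16 with 1 pair left out. At 25C, with a pseudocount of 0.1, 148 rose and 104 fell, and 0 to 116 and 0 to 56 did with 1 replicate left out.

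Among genes that had not passed, signs turned for nhr-23 (0.088 at 6 h, -0.32 to 0.088 with 1 pair left out, 0.045 among them), lin-41 (-0.0047 at 0 h, -0.023 at 2 h and with 1 pair left out), nhr-25 (-0.050 at 6 h, -0.025 against all wild-type libraries, -0.037 to 0.14 with 1 pair left out, -0.0064 and -0.0012 among them), hbl-1 (-0.040 at 6 h), nhl-2 (-0.084 at 6 h, -0.039 with 1 pair left out), lin-42 (0.28 with 1 pair left out), sea-2 (0.23 at 0 h, 0.093 at 2 h, 0.0059 against all wild-type libraries, -0.13 to 0.059 with 1 pair left out), mab-10 (-0.46 at 0 h, -0.22 at 2 h and against all wild-type libraries, -0.045 to 0.44 with 1 pair left out), rpl-11.1 (-0.068 at 0 h), phat-5 (1.29 at 0 h, 0.34 at 2 h) and fat-7 (0.15 at 6 h, -0.28 to 0.013 with 1 pair left out). Over the named genes that had passed, lin-14 and lin-28 not counted, 709 values under alternatives still passed the test in the same direction. A further 313 no longer passed and 1 changed sign, and the size threshold was not applied in this tally. With 1 pair left out 4 pairs remain, and other causes were not tested. Values near 1 RPKM rest on few reads, the wild-type libraries are the shallower ones, and the depth limits what can be said of low genes listed at or near 0.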
